A study of Mus musculus with 4 samples.

Results

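Primary mouse embryonic fibroblasts (MEFs) that lack Trp53 were compared directly with MEFs that lack Zfp871, as 1 RNA sequencing library of Trp53-/- cells over 1 library of Zfp871-/- cells. Genes were taken where the raw counts reached at least 1 CPM (counts scaled to a common library size) in at least 1 of these 2 libraries, which held for 13551 of the 54532 gene IDs in the count table. The series has 4 libraries, 1 each from Trp53-/- cells, Zfp871-/- cells, double-null cells (Trp53-/-; Zfp871-/-) and wild-type (WT) cells. All 4 were labelled C57BL/6 and came from embryos of 12.5 to 13.5 days of gestation, and growing cells were harvested at passage 4 from medium with 10% serum. The Trp53-/- and double-null cells came from crosses of mice heterozygous for both genes, while the Zfp871-/- cells came from crosses of Zfp871 heterozygotes, per the series description. Within the compared pair, the cross therefore cannot be told apart from the genotype. WT cells are described for both crosses, and which one gave the sequenced WT library is not given in the sources used here. How either allele was made, and whether embryos were pooled, is not given in the sources used here. No genotype had a replicate library, so each ratio compares 2 libraries, carries no p-value, and has an interval that covers counting error alone.

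Trp53 encodes p53, a transcription factor that is stabilised by damage and stress and then switches on genes of cell cycle arrest, cell death, DNA repair and metabolism. Mdm2 is one of these targets, and its product marks p53 for degradation, which closes a feedback loop. Cultured primary MEFs have an active p53 pathway that limits their growth, and MEFs without p53 escape this limit. The product of Zfp871 is a zinc finger protein that the series title ties to p53 and Mdm2. MEF cultures are mixed outgrowths of embryonic connective tissue and can carry macrophages, cartilage precursors, glial precursors and other cells.

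The libraries held 21004078 counts in Trp53-/- and 19974054 counts in Zfp871-/- cells, against 22324599 counts in the double null and 19303167 in WT. After TMM scaling, which sets the bulk of genes to equal levels, the Trp53-/- library was 1.16 times as large as the Zfp871-/- library, so equal expression corresponds to 1.16 times as many counts. Across the 13551 genes the log2 ratio had a median of 0.01 and quartiles of -0.29 and 0.30. A gene was called at a ratio of at least 2-fold: 912 genes (6.73%) were higher and 975 genes (7.2%) were lower in Trp53-/- than in Zfp871-/- cells, together 13.9%. At the edge of the CPM filter, Gm26645 with 17 and 20 counts was kept and Gm12669 with 21 and 19 counts was not. Fibroblast markers were abundant in both libraries. The 14 fibroblast markers summed to 32039 normalized CPM in Trp53-/- and 42298 in Zfp871-/- cells, with none at 0, beside 29808 in the double null and 40036 in WT. The 18 macrophage markers, also with none at 0, summed to 1218 and 99.7 in the compared pair. Of 18 cartilage markers 5 were at 0 in Trp53-/- cells. Genes annotated as rRNA took 0.189% of counts in Trp53-/- and 0.602% in Zfp871-/- cells, beside 0.294% in the double null and 0.413% in WT, and the part of this difference between libraries in the results was not tested.

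**Figure D1:**
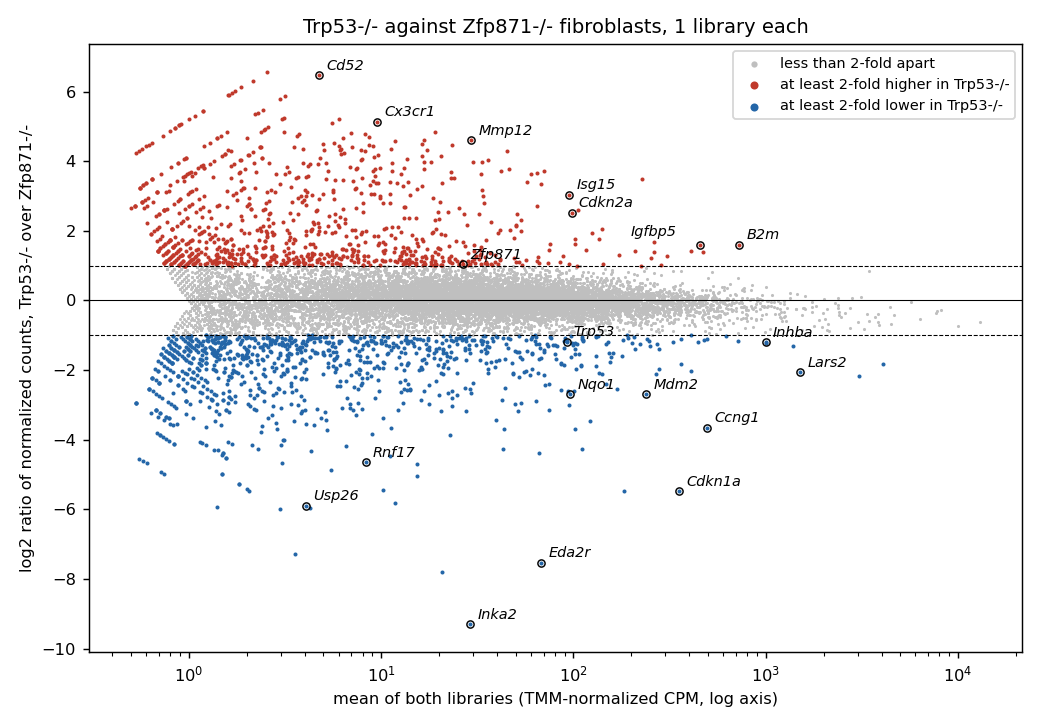
Each point is 1 of the 13551 genes, with the mean TMM-normalized CPM of both libraries on a log x axis and the log2 ratio of normalized counts, Trp53-/- over Zfp871-/-, on the y axis; dashed lines mark 2-fold. The lowest named gene is Inka2 at -9.31, Cdkn1a lies at -5.48 and Cd52 at 6.47, while the bulk of abundant genes lies within the dashed lines.

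Each targeted gene was lower in the library labelled null for it. Trp53 (ENSMUSG00000059552, GRCm38/mm10 chromosome 11, 69580359 to 69591873) had 1233 counts in Trp53-/- and 2413 in Zfp871-/- cells, beside 1382 in the double null and 2383 in WT, a log2 ratio of -1.19 (95% counting interval -1.29 to -1.09). Zfp871 (ENSMUSG00000024298, chromosome 17, 32765496 to 32788287) had 784 counts in Trp53-/- and 327 in Zfp871-/- cells, beside 307 in the double null and 660 in WT, a log2 ratio of 1.04 (0.85 to 1.23). Both transcripts remained detectable in their null libraries, and counts per gene show neither which exons were lost nor whether protein was made.

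The double null and WT libraries take no part in the ratio and show on which side each difference lay. Of the 1887 genes at least 2-fold apart, 1384 (73.3%) had WT nearer to Zfp871-/- and the double null nearer to Trp53-/- on the log2 scale. In these genes the side, though not always the level, went with the Trp53 genotype. Another 253 genes (13.4%) had both of the other libraries nearer to Trp53-/-, so that the Zfp871-/- library stood alone, and 188 genes (9.96%) had both nearer to Zfp871-/-, so that the Trp53-/- library stood alone. The remaining 62 genes (3.29%) had WT nearer to Trp53-/- and the double null nearer to Zfp871-/-, the sides of the Zfp871 genotype. Nearness gives the side alone, and a library can lie far outside the pair. Cdsn, on the sides of the Trp53 genotype, had 70 counts in Trp53-/- and 140 in Zfp871-/- cells, beside 53 in the double null and 1792 in WT. Hpgd, placed with the genes where Zfp871-/- stood alone, had 45 and 12 counts, beside 51 and 323.

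The ratio of the double null to WT gives a second pair that differs in Trp53 and shares no library with the first, although in it Zfp871 is lost together with Trp53 and not in its place. In that pair the same 2-fold limit was passed by 1255 genes (9.26%) that were higher and by 1301 genes (9.6%) that were lower in the double null. Of the 912 genes higher in Trp53-/- than in Zfp871-/- cells, 611 (67.0%) were also 2-fold higher in the double null than in WT, which is 48.7% of the second set, and 27 were 2-fold lower. Of the 975 lower genes, 659 (67.6%) were also 2-fold lower in the double null, which is 50.7% of the second set, and 23 were 2-fold higher. Over 13548 genes the log2 ratios of both pairs had a Pearson correlation of 0.75 and a Spearman correlation of 0.62, given as a description across genes, which are not independent.

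**Figure D2:**
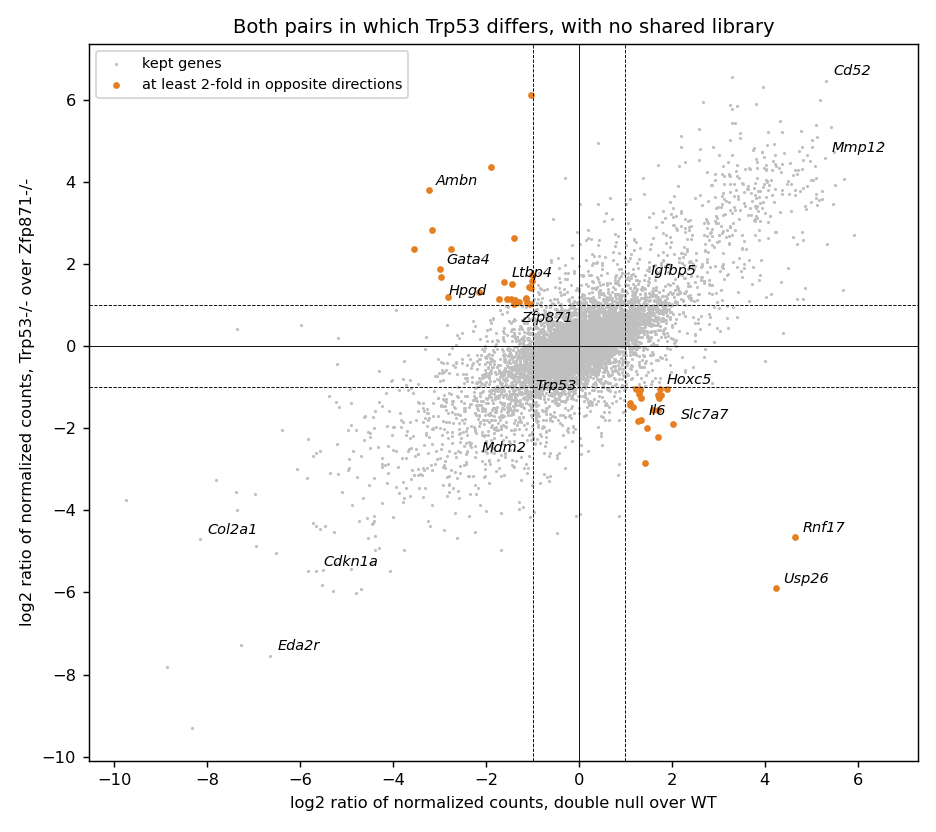
Each point is a gene, with the log2 ratio of the double null over WT on the x axis and of Trp53-/- over Zfp871-/- on the y axis; dashed lines mark 2-fold and orange points are the 50 genes at least 2-fold apart in opposite directions. Eda2r and Cdkn1a lie at the lower left, Cd52 and Mmp12 at the upper right, and Usp26 and Rnf17 at the lower right.

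Most regulators in the p53 feedback loop lay lower in Trp53-/- than in Zfp871-/- cells. Of the 10 kept members, 5 lay below the 2-fold limit and 1 above it, with a median log2 ratio of -0.94 against 0.01 over all genes. Mdm2 had 1397 counts in Trp53-/- and 7786 in Zfp871-/- cells, beside 1523 in the double null and 5875 in WT, a log2 ratio of -2.70 (-2.78 to -2.62). The Zfp871-/- library thus had the highest Mdm2 count of the 4. Mdm4, the partner of Mdm2 that blocks p53 without degrading it, was close to even, with 1519 counts in Trp53-/- and 1676 in Zfp871-/- cells, beside 1557 and 1541 in the double null and WT, a log2 ratio of -0.36 (-0.46 to -0.26). On the authors' length-normalized FPKM scale Mdm2 stood at 12.5 in Trp53-/- and 81.3 in Zfp871-/- cells, and Mdm4 at 4.67 and 6.01, so Mdm2 was the more abundant of both transcripts in either library.

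Ccng1 encodes cyclin G1, which recruits a phosphatase to Mdm2, and Trp53inp1 encodes a cofactor of p53 in cell death. Ccng1 had 1607 counts in Trp53-/- and 17335 in Zfp871-/- cells, beside 1609 in the double null and 16224 in WT, a 12.6-fold lower level (log2 ratio -3.65, -3.73 to -3.58). Trp53inp1 had 241 and 3972 counts, beside 199 and 4305, and was 19.2-fold lower. In neither gene did the levels of the Trp53-null libraries come near those of the libraries with Trp53.

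Cdkn2a was the member that lay the other way. The locus encodes the cyclin-dependent kinase inhibitor p16INK4a and, in another reading frame, p19ARF, which restrains Mdm2. It had 3652 counts in Trp53-/- and 547 in Zfp871-/- cells, beside 4722 in the double null and 1042 in WT, a log2 ratio of 2.52 (2.39 to 2.65). Counts per gene do not separate the transcripts of this locus. WT lay between both single nulls, nearer to Zfp871-/-, which had the lowest count of the 4 libraries.

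Among the p53 targets of growth arrest, 8 of 14 were lower by 2-fold or more in Trp53-/- than in Zfp871-/- cells and 1 was at least 2-fold higher, with a median log2 ratio of -1.34. Cdkn1a encodes p21, the kinase inhibitor through which p53 stops the cell cycle. It had 341 counts in Trp53-/- and 13103 in Zfp871-/- cells, beside 341 in the double null and 13979 in WT, and was 44.7-fold lower (log2 ratio -5.48, -5.64 to -5.33). On the FPKM scale Cdkn1a was at 4.37 in Trp53-/- and 196 in Zfp871-/- cells, while Cdkn2a was at 142 and 24.8, so that the more abundant inhibitor transcript of these was Cdkn2a in Trp53-/- and Cdkn1a in Zfp871-/- cells. Cdkn1b, the related inhibitor p27, stood at 12.3 and 10.2 FPKM.

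Btg2, an antiproliferative cofactor of mRNA deadenylation, had 269 counts in Trp53-/- and 1782 in Zfp871-/- cells, beside 312 in the double null and 1921 in WT, a log2 ratio of -2.95 (-3.14 to -2.76). Sestrins, which restrain the growth kinase mTORC1, lay on opposite sides. Sesn2 had 900 and 2232 counts, beside 839 and 2088, a log2 ratio of -1.53. Sesn1 had 384 and 158 counts, beside 383 and 320, a log2 ratio of 1.06 (0.79 to 1.34). For Sesn1 the Zfp871-/- library stood alone as the low one. Plk2 and Plk3, stress-responsive kinases, had log2 ratios of -0.13 and -0.14.

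Cell death targets of p53 lay lower in Trp53-/- cells in 10 of 14 cases at 2-fold, and none was 2-fold higher; the median log2 ratio was -1.26. Eda2r, a receptor of the tumour necrosis factor receptor family, had 16 counts in Trp53-/- and 2557 in Zfp871-/- cells, beside 26 in the double null and 2107 in WT, and was 186-fold lower (log2 ratio -7.54, -8.35 to -6.84). Perp, a membrane protein of desmosomes and of p53-dependent death, had 9 and 439 counts, beside 28 and 1052, and was 56.8-fold lower. Its Zfp871-/- count lay below that of WT. Bax, the pore-forming member of the BCL2 family, differed less, with 1255 counts in Trp53-/- and 2401 in Zfp871-/- cells, beside 1439 and 2898 in the double null and WT, a log2 ratio of -1.16 (-1.26 to -1.06).

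The BH3-only proteins that activate Bax were also lower. Bbc3, which encodes PUMA, had 179 and 362 counts, a log2 ratio of -1.24 (-1.50 to -0.97), and Pmaip1, which encodes NOXA, had 227 and 1412 counts, a log2 ratio of -2.86 (-3.07 to -2.65). Dram1, a lysosomal protein linked to autophagy, was the only kept member of this list above 0, with 551 and 361 counts and a log2 ratio of 0.39 (0.20 to 0.59).

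Targets in DNA repair and metabolism were split between genes far apart and genes close to even. Of 13 kept members 6 were at least 2-fold lower and none was 2-fold higher in Trp53-/- than in Zfp871-/- cells, with a median log2 ratio of -0.45. Ephx1, an epoxide hydrolase, was the lowest at -3.70 (318 counts in Trp53-/- and 3558 in Zfp871-/- cells, beside 291 in the double null and 5970 in WT). Polk, a translesion DNA polymerase, had 569 and 1558 counts, a log2 ratio of -1.67 (-1.81 to -1.53). Xpc and Ddb2, which recognise DNA lesions for nucleotide excision repair, differed in sign: Xpc was at -0.45 (-0.68 to -0.22), and Ddb2 at 1.00 (0.34 to 1.69), just under 2-fold, with 65 counts in Trp53-/- and 28 in Zfp871-/- cells.

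The 12 lowest genes by the interval limit nearest to 0 included p53 targets from the lists above and genes outside them. Inka2, which encodes an inhibitor of the kinase PAK4, had 2 counts in Trp53-/- and 1089 in Zfp871-/- cells, beside 5 in the double null and 1313 in WT, and was 634-fold lower (log2 ratio -9.31, -12.36 to -7.45). Ano3, of the anoctamin membrane protein family, had 4 and 773 counts, beside 2 and 756. Olfr1318, an olfactory receptor gene, had 0 and 160 counts, beside 0 and 95, and was at least 62.1-fold lower with the 0 set to 3 counts. All of these were near or at 0 in both Trp53-null libraries.

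Noncoding genes were among the 12 as well. The lincRNA Gm42047 (chromosome 8) had 176 counts in Trp53-/- and 6770 in Zfp871-/- cells, beside 136 in the double null and 6330 in WT, and was 44.8-fold lower, a ratio as large as that of Cdkn1a. AC167363.2, which lies within Cdkn1a on chromosome 17 (29093416 to 29094461), had 1 and 133 counts, beside 1 and 125; no strand setting is stated for the counting, so its reads could not be separated from those of Cdkn1a. Ddit4l, a relative of the mTORC1 inhibitor Ddit4, had 20 and 565 counts, beside 11 and 823, and was 32.9-fold lower.

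**Figure D3:**
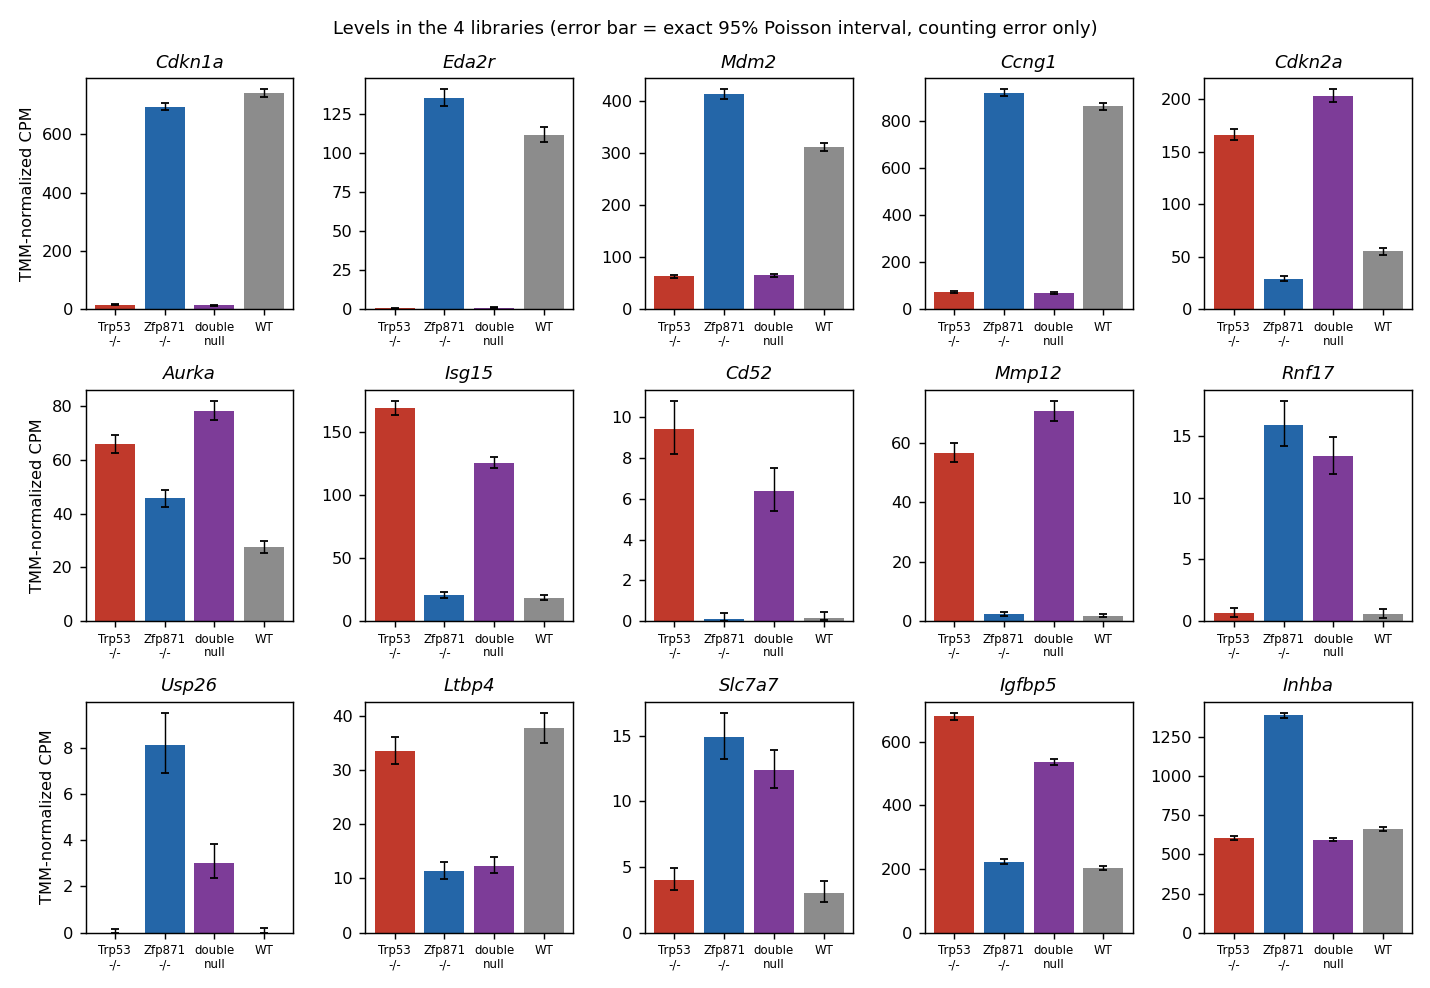
Bars give TMM-normalized CPM of 15 genes in the Trp53-/-, Zfp871-/-, double-null and WT libraries, from left to right, with exact 95% Poisson intervals of the counts as error bars. Cdkn1a, Eda2r, Mdm2 and Ccng1 are low in both Trp53-null libraries, Isg15, Cd52 and Mmp12 are high in both, Rnf17, Usp26 and Slc7a7 are high in both Zfp871-null libraries, and Inhba is highest in Zfp871-/- alone.

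Cell division genes were higher in Trp53-/- than in Zfp871-/- cells, each by a modest amount. The 30 mitosis and spindle genes all had a positive ratio, with a median log2 ratio of 0.58 against 0.01 over all genes. Single genes ranged from 0.06 to 1.08, and only 2 reached 2-fold. Relative to TMM, the 4 scalings tried shifted all log2 ratios alike, by -0.002 to 0.15, so none could reverse these signs. Cdk1, the kinase that drives entry into mitosis, had 2946 counts in Trp53-/- and 1338 in Zfp871-/- cells, beside 3480 in the double null and 1107 in WT, a log2 ratio of 0.92 (0.83 to 1.01). Its partner cyclin B1, Ccnb1, had 2780 and 1561 counts, beside 3240 and 1025, a log2 ratio of 0.61 (0.52 to 0.70). Plk1, the polo-like mitotic kinase, had 1839 and 1242 counts, beside 2275 and 762, a log2 ratio of 0.35 (0.24 to 0.45). For these genes the Zfp871-/- count lay above that of WT and below that of both Trp53-null libraries. Over the list the median log2 ratios to WT were 1.11 for Trp53-/- and 0.55 for Zfp871-/-; these share the WT library.

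The promoters of these genes are shown because many hold TTTGAA, the core of the cell cycle genes homology region (CHR), at which repressor and activator complexes of the cell cycle are known to bind. Promoters were taken from RefSeq (GRCm38.p6) as 300 bases around each start, from 250 before to 50 after it, and both strands were searched. TTTGAA was found in 19 of the 25 mitosis and spindle genes with an entry (76.0%), in 3 of 25 DNA replication genes and in 14.3% of the 10198 kept genes with an entry. The stretches around the first match in the first 3 list members that hold one are given 5′ to 3′ on the strand of the gene, with the motif in capitals. They lie at chr10:69352923-69353038 (minus strand, Cdk1), chr7:122159410-122159484 (plus strand, Plk1) and chr2:172370521-172370593 (minus strand, Aurka).
Cdk1: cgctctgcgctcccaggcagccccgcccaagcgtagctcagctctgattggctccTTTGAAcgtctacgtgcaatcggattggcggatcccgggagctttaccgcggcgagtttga
Plk1: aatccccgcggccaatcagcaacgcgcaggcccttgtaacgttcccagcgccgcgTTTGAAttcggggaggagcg
Aurka: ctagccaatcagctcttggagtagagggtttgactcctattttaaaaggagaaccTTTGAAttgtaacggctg
In Cdk1 the motif starts 71 bases before the transcript start, and in Plk1 and Aurka 30 and 32 bases after it. Aurka, the spindle kinase, had 1447 counts in Trp53-/- and 860 in Zfp871-/- cells, beside 1815 in the double null and 518 in WT, a log2 ratio of 0.53 (0.41 to 0.65). A match describes the sequence and does not show binding.

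DNA replication genes lay further apart than the mitotic ones. All 30 had a positive ratio, with a median log2 ratio of 0.79, and 6 were at least 2-fold higher in Trp53-/- than in Zfp871-/- cells. The highest was Cdc6, which loads the replicative helicase, with 895 counts in Trp53-/- and 261 in Zfp871-/- cells, beside 1028 in the double null and 149 in WT, a log2 ratio of 1.56 (1.36 to 1.76). The helicase subunits Mcm2, Mcm3 and Mcm4 had log2 ratios of 0.71, 0.57 and 0.56. At the low end Rrm2, a subunit of ribonucleotide reductase, had 4876 and 3906 counts and a log2 ratio of 0.10 (0.04 to 0.16).

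Genes of repair by recombination had a median of 0.79 with 6 of 16 at least 2-fold higher. Brca1, which directs broken ends to recombination, had 1058 counts in Trp53-/- and 437 in Zfp871-/- cells, beside 1047 in the double null and 257 in WT, a log2 ratio of 1.06 (0.89 to 1.22). Fanci, of the interstrand crosslink pathway, was the 1 member below 0, at -0.30 (-0.54 to -0.06), with 278 and 294 counts, beside 423 and 155. Cyclins, kinases and inhibitors of G1 were close to even, with a median of 0.18 and none of 16 at 2-fold. The D-type cyclins, which start the exit from G1, were on the negative side, from -0.79 (-0.82 to -0.76) for Ccnd2 to -0.21 for Ccnd3.

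Macrophage genes were the group furthest apart in the positive direction. All 18 markers were at least 2-fold higher in Trp53-/- than in Zfp871-/- cells, with log2 ratios of 2.37 to 5.87 and a median of 3.97. Adgre1, which encodes the macrophage surface protein F4/80, had 1884 counts in Trp53-/- and 118 in Zfp871-/- cells, beside 1621 in the double null and 89 in WT, a log2 ratio of 3.78 (3.51 to 4.06). Csf1r, the receptor for the macrophage growth factor, had 2698 and 230 counts, beside 2437 and 192, a log2 ratio of 3.33 (3.14 to 3.53). All 18 markers were detected in every library, and for each of them both Trp53-null libraries lay above both others. The 14 with at least 1 CPM in both libraries had a median of 3.79 and were all at least 2-fold higher. The list summed to 1218 normalized CPM in Trp53-/- and 99.7 in Zfp871-/- cells, beside 1107 in the double null and 85.9 in WT.

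On the FPKM scale Lyz2, the lysozyme of macrophages, was at 316 in Trp53-/- and 28.1 in Zfp871-/- cells, and Ptprc, which encodes the blood cell marker CD45, at 1.87 and 0.119, against 1555 and 2411 for the fibroblast collagen Col1a1. In bulk libraries a larger number of macrophages and more RNA per macrophage cannot be told apart. The level of macrophage RNA also moved with the Trp53 genotype and with the genes described next, and its part in them was not tested.

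The 12 highest genes by the interval limit included genes of myeloid cells outside that list. Cd52, a small surface glycoprotein of leukocytes, had 207 counts in Trp53-/- and 2 in Zfp871-/- cells, beside 148 in the double null and 3 in WT, and was 88.9-fold higher (log2 ratio 6.47, 4.60 to 9.53). Mmp12, the macrophage elastase, had 1243 and 44 counts, beside 1640 and 34, a 24.3-fold higher level. Casp1, the inflammatory caspase that cleaves the precursor of interleukin 1 beta, had 111 and 1 counts, beside 85 and 7. Il1b itself had 70 and 0 counts, beside 44 and 0, so it was detected only in the Trp53-null libraries. Cx3cr1, the fractalkine receptor, had 408 and 10 counts, beside 118 and 21, so the double null held fewer counts than Trp53-/- cells.

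Interferon-stimulated genes were higher in Trp53-/- than in Zfp871-/- cells in all 30 cases, 28 of them at 2-fold, with a median log2 ratio of 2.48 against 2.04 for the double null over WT. Irf7, which amplifies type I interferon, had 1314 counts in Trp53-/- and 163 in Zfp871-/- cells, beside 850 in the double null and 142 in WT, a log2 ratio of 2.79 (2.56 to 3.04). Isg15, a ubiquitin-like modifier, had 3718 and 387 counts, beside 2921 and 352, a log2 ratio of 3.04 (2.89 to 3.20). The farthest apart was Cmpk2, a mitochondrial nucleotide kinase, at 3.92, and the RNA sensor Ddx58 and the kinase Eif2ak2 were nearest to even, both at 0.51.

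These promoters are shown because they share the core of the interferon-stimulated response element (ISRE), a promoter element known to drive induction by interferon. The core was searched as GAAANNGAAA on both strands, where N is any base. It was present in 15 of the 21 interferon-stimulated genes with an entry (71.4%), in 2 of 12 macrophage markers, in 2 of 10 genes of MHC class I presentation and in 3.80% of the 10198 kept genes. Matches of both motifs were counted apart and may overlap. The first 3 list members with a match, again 5′ to 3′ on the strand of the gene and with the match in capitals, lie at chr4:156200832-156200951 (minus strand, Isg15), chr19:34640749-34640868 (plus strand, Ifit1) and chr19:34583352-34583471 (plus strand, Ifit3). In Ifit1 and Ifit3 the match is on the opposite strand.
Isg15: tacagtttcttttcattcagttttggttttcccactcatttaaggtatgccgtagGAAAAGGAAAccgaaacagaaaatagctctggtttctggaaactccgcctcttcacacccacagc
Ifit1: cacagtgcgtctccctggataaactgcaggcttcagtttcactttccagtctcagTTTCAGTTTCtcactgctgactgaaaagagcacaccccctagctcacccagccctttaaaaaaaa
Ifit3: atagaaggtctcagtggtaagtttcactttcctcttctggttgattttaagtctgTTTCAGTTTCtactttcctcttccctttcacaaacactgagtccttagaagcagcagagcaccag
The matches in capitals start 78, 85 and 122 bases before the transcript starts of Isg15, Ifit1 and Ifit3. Each of these stretches also holds the core elsewhere, unmarked, and in Isg15 overlapping the marked match. Ifit1, which binds foreign RNA, had 1803 counts in Trp53-/- and 350 in Zfp871-/- cells, beside 1613 in the double null and 296 in WT, a log2 ratio of 2.15 (1.98 to 2.31). Ifit3, its partner, had 1005 and 154 counts, beside 654 and 181, a log2 ratio of 2.49 (2.24 to 2.74).

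Genes that load peptides onto MHC class I were higher as well, with 10 of 12 at 2-fold and a median log2 ratio of 1.43. B2m, the invariant light chain of MHC class I, was among the 10 most abundant genes at least 2-fold apart and had 24086 counts in Trp53-/- and 6805 in Zfp871-/- cells, beside 19994 in the double null and 9044 in WT, a log2 ratio of 1.60 (1.57 to 1.64). The heavy chains H2-K1 and H2-D1 had log2 ratios of 1.67 and 1.26. These heavy chain genes are close copies of each other, so their reads may have been shared or dropped. Tap1, the peptide transporter that is also a p53 target, did not differ beyond counting error, with 976 and 861 counts and a log2 ratio of -0.04 (-0.17 to 0.10).

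Chemokines lay on both sides. Of 15 kept genes 9 were at least 2-fold higher and 2 were lower by that factor, with a median of 1.77. Of the 10 with at least 1 CPM in both libraries 4 were higher and 2 lower, with a median of 0.74. Ccl3, an attractant made by macrophages, had 95 counts in Trp53-/- and 2 in Zfp871-/- cells, beside 105 in the double null and 2 in WT, a log2 ratio of 5.35 (3.46 to 8.42). Cxcl10, an interferon-induced attractant of T cells, had 500 and 18 counts, beside 378 and 22, a log2 ratio of 4.58 (3.90 to 5.34). Cxcl14, made by connective tissue and epithelium, was the lowest, with 527 and 2376 counts, beside 440 and 3183, a log2 ratio of -2.39 (-2.53 to -2.26). Cxcl1, a neutrophil attractant, had 106 and 57 counts in this pair but 173 in the double null and 506 in WT, so the single nulls held the 2 lowest counts.

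Opposite ratios in both pairs mark genes whose direction went with Zfp871 in each. In all 50 genes were at least 2-fold apart in Trp53-/- over Zfp871-/- and at least 2-fold apart the other way in the double null over WT, of which 23 were higher and 27 lower where Zfp871 was lost. By nearness of levels, 28 of the 50 were among the 62 genes on the sides of the Zfp871 genotype. In 16 the Zfp871-/- library stood alone on its side, and in 6 the Trp53-/- library did. For 41 of the 50 both counting intervals excluded equal levels. The genes named next were chosen after their values were seen, except Rnf17, Usp26, Zfp871 and those that were highest or lowest in a list.

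Usp26, an X-linked deubiquitinase gene of the male germ line, had 0 counts in Trp53-/- and 153 in Zfp871-/- cells, beside 70 in the double null and 0 in WT, and was at least 59.4-fold lower with the 0 set to 3 counts. Rnf17, a Tudor domain protein of germ cells, had 14 and 301 counts, beside 311 and 10, a log2 ratio of -4.65 (-5.53 to -3.88). Both genes were at or near 0 wherever Zfp871 was intact. Of 22 germline genes on the list 7 passed the CPM filter, Usp26 and Rnf17 among them. Of these 7, 4 were at least 2-fold lower and 1 higher (71.4%, against 13.9% over all kept genes), with a median log2 ratio of -1.05. Of the 4 with at least 1 CPM in both libraries 1 was lower and 1 higher by 2-fold, with a median of 0.34. Tdrd7, another Tudor domain gene, had 935 and 607 counts, beside 879 and 685, and Ddx4, the germ cell helicase, had 22 and 39, beside 16 and 26.

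Slc7a7, a subunit of the transporter that exports cationic amino acids, had 88 counts in Trp53-/- and 281 in Zfp871-/- cells, beside 287 in the double null and 57 in WT, a log2 ratio of -1.89 (-2.26 to -1.54). Ltbp4, which binds latent TGF-beta in elastic fibres, lay the other way with 737 and 215 counts, beside 287 and 711, a log2 ratio of 1.56 (1.34 to 1.78). In both genes the Zfp871-null libraries lay together, apart from the libraries with Zfp871. Ambn and Odam, both on chromosome 5 and known from the tooth enamel organ, had 49 and 25 counts in Trp53-/- and 0 and 0 in Zfp871-/- cells, beside 0 and 0 in the double null and 23 and 22 in WT. Both were detected only in the libraries with intact Zfp871, and with the 0 set to 3 counts Odam was at least 7.16-fold higher in Trp53-/- than in Zfp871-/- cells.

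Other genes set the Zfp871-/- library apart from the other 3. Inhba, which encodes the activin A subunit of the TGF-beta family, had 13280 counts in Trp53-/- and 26206 in Zfp871-/- cells, beside 13786 in the double null and 12477 in WT, a log2 ratio of -1.20 (-1.23 to -1.17). Wnt5a, a noncanonical Wnt ligand, had 2665 and 5349 counts, beside 3993 and 2960, a log2 ratio of -1.22 (-1.29 to -1.16). Pi15, a secreted trypsin inhibitor and among the farthest apart of the 253 genes of this kind, chosen after its values were seen, had 90 and 699 counts, beside 138 and 181, a log2 ratio of -3.18 (-3.51 to -2.86). Il6, an inflammatory cytokine and 1 of the 16 genes with opposite ratios in this class, had 18 and 54 counts, beside 28 and 9, a log2 ratio of -1.80 (-2.66 to -1.01).

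By nearness of levels the Trp53-/- library stood apart at Igf2, the imprinted fetal growth factor, though the double null lay between Trp53-/- and WT. Igf2 had 85 counts in Trp53-/- and 535 in Zfp871-/- cells, beside 260 in the double null and 468 in WT, a log2 ratio of -2.87 (-3.22 to -2.54). H19, the imprinted noncoding gene beside it, had 13097 and 26404 counts, beside 23302 and 22809, a log2 ratio of -1.23 (-1.26 to -1.20). These were the 2 imprinted genes of 18 kept that reached 2-fold (11.1%, below the 13.9% over all kept genes). In each the other 3 libraries lay above Trp53-/-.

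**Figure D4:**
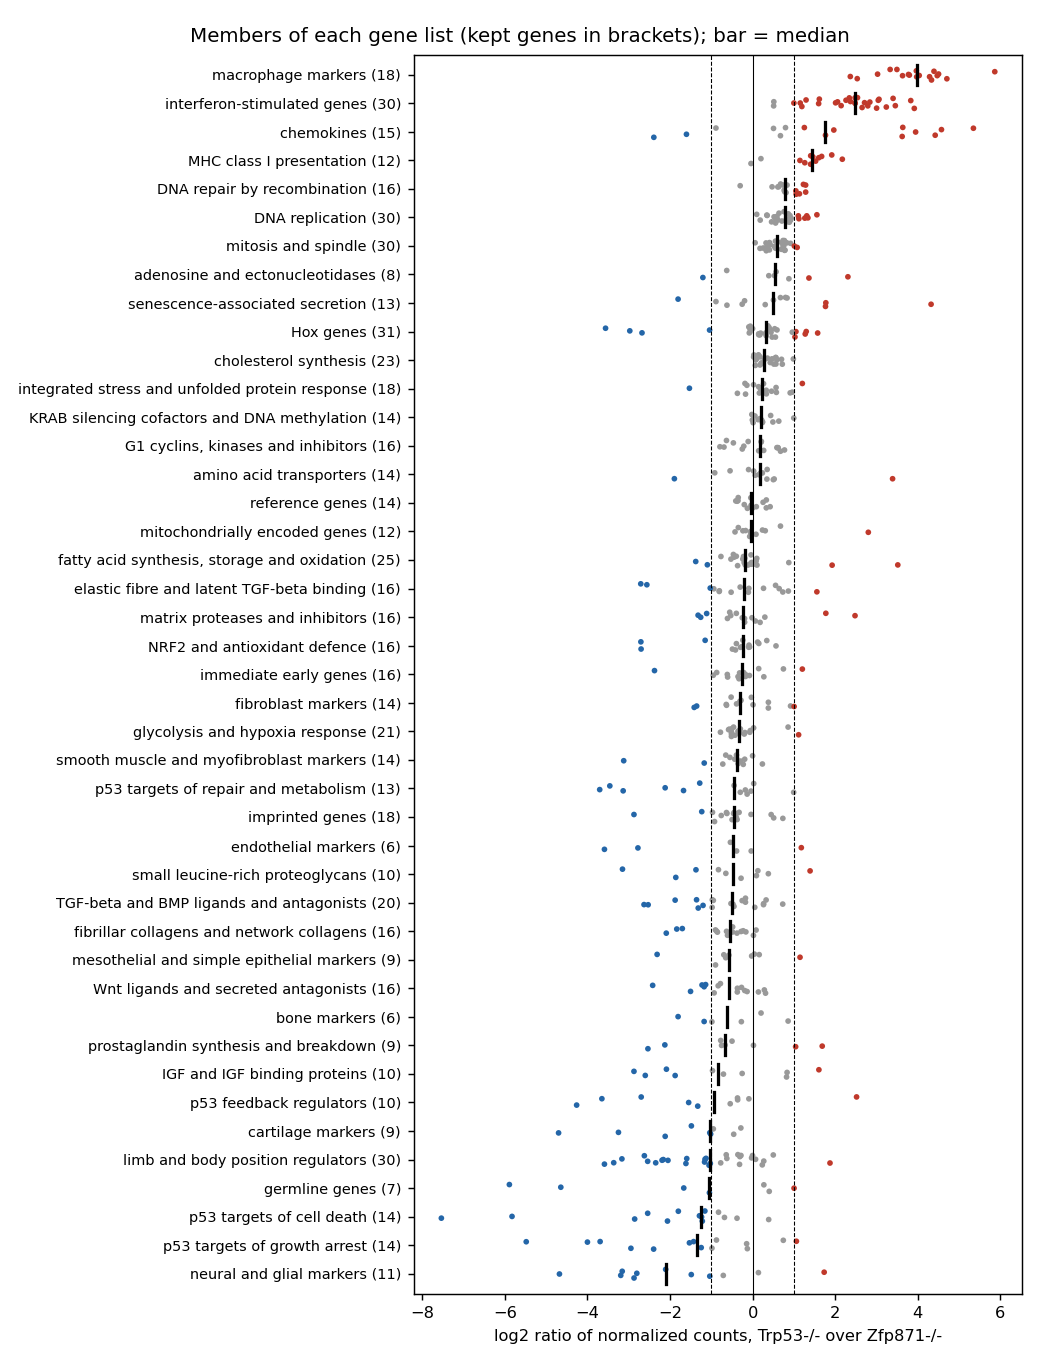
Each point is a kept gene of the list named on the left, placed by its log2 ratio of normalized counts, Trp53-/- over Zfp871-/-, with the number of kept genes in brackets and a bar at the median; red and blue points are at least 2-fold higher and lower, and lists with fewer than 6 kept genes are left out. Macrophage markers have a median of 3.97, p53 targets of growth arrest of -1.34 and neural and glial markers of -2.11, while reference genes lie at -0.04.

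Growth factor genes were for the most part lower in Trp53-/- than in Zfp871-/- cells. Of 10 genes for IGFs, their receptors and binding proteins, 4 were at least 2-fold lower, Igf2 again among them, and 1 higher. Igfbp5, the binding protein stored in the matrix, was the higher one, with 14952 counts in Trp53-/- and 4216 in Zfp871-/- cells, beside 12423 in the double null and 3843 in WT, a log2 ratio of 1.61 (1.56 to 1.66). Igf1 had 754 and 366 counts, beside 584 and 383, a log2 ratio of 0.82 (0.64 to 1.01). Igf1r, the receptor of both ligands, had 3685 and 5161 counts and a log2 ratio of -0.71 (-0.77 to -0.64).

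Wnt ligands and secreted Wnt antagonists had a median of -0.57 with 5 of 16 at least 2-fold lower and none higher. Of the 15 with at least 1 CPM in both libraries 4 were lower by 2-fold, with a median of -0.37. The lowest was Sfrp1, a secreted decoy receptor, with 494 counts in Trp53-/- and 2271 in Zfp871-/- cells, beside 464 in the double null and 1426 in WT, a log2 ratio of -2.42 (-2.56 to -2.28). TGF-beta and BMP genes had a median of -0.50 with 6 of 20 at least 2-fold lower and none higher. Tgfb1, Tgfb2 and Tgfb3, the ligands themselves, had log2 ratios of -0.25, -0.52 and -1.32, the last with 3135 and 6706 counts, beside 5534 and 5467. Chrd, the BMP antagonist chordin, was lowest at -2.63 (-3.42 to -1.91).

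Matrix genes were lower to a lesser extent. Of 16 collagens 14 had a negative ratio under each of the 4 scalings, with a median log2 ratio of -0.55. Past the 2-fold limit lay 3 of them (18.75%, against 13.9% over all kept genes). Col1a1, the main chain of type I collagen, had 224041 counts in Trp53-/- and 297940 in Zfp871-/- cells, beside 205437 in the double null and 280560 in WT, a log2 ratio of -0.63 (-0.64 to -0.62). Col1a2 and Col3a1 had log2 ratios of -0.28 and -0.48. Col18a1, of basement membranes, was the lowest with 1133 and 4145 counts, beside 1338 and 7217, a log2 ratio of -2.09.

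Elastic fibre genes had 3 of 16 at least 2-fold lower and 1, Ltbp4, at least 2-fold higher. Eln, the elastin gene, had 547 counts in Trp53-/- and 2773 in Zfp871-/- cells, beside 504 in the double null and 11907 in WT, a log2 ratio of -2.56 (-2.70 to -2.43). WT thus exceeded the Zfp871-/- library as well. Among small leucine-rich proteoglycans, which organise collagen fibrils, Prelp was lowest at -3.15 (332 and 2534 counts, beside 488 and 1935) and Aspn highest at 1.39 (8356 and 2732 counts, beside 5806 and 2490). Decorin, Dcn, had a log2 ratio of 0.38 and biglycan, Bgn, of 0.09.

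Of the matrix proteases and their inhibitors, Mmp9, a gelatinase also made by macrophages, was highest with 1893 counts in Trp53-/- and 291 in Zfp871-/- cells, beside 1940 in the double null and 39 in WT, a log2 ratio of 2.48 (2.30 to 2.67). Timp3, a matrix-bound protease inhibitor, was lowest with 17471 and 37455 counts, beside 16210 and 28773, a log2 ratio of -1.32 (-1.35 to -1.29). Mmp2, the gelatinase of fibroblasts, was at -1.26 (-1.31 to -1.20).

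Cartilage markers lay lower in Trp53-/- cells, while bone markers had ratios of both signs. All 9 kept cartilage markers had a negative ratio, 6 of them by 2-fold, but 4 of the 9 passed the filter through Zfp871-/- alone, and of the 5 with at least 1 CPM in both libraries 2 were lower by 2-fold. The cartilage list summed to 141 normalized CPM in Trp53-/- and 529 in Zfp871-/- cells, beside 203 in the double null and 1404 in WT. Col2a1, the collagen of cartilage, had 25 and 558 counts, beside 50 and 11633, a log2 ratio of -4.70 (-5.34 to -4.12). Acan, the cartilage proteoglycan, had 100 and 166 counts, beside 180 and 1919, and Sox9, the regulator of both, had 654 and 771 counts, beside 774 and 798, a log2 ratio of -0.46 (-0.61 to -0.30). WT held the highest counts of Col2a1 and Acan by far, so the level of cartilage RNA differed among all 4 libraries. Of 6 kept bone markers 2 had a positive and 4 a negative ratio, with a median of -0.63. At 2-fold 2 were lower and none was higher. Of the 5 with at least 1 CPM in both libraries 1 was lower by 2-fold, with a median of -0.27. The sum of the bone list lay the other way, at 4950 normalized CPM in Trp53-/- and 3521 in Zfp871-/- cells, beside 4059 in the double null and 3390 in WT.

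Of 30 regulators of limb and body position 16 were at least 2-fold lower and 1 was higher, with a median of -1.04. Of the 20 with at least 1 CPM in both libraries, 8 were lower by 2-fold and none higher, with a median of -0.49, so that part of the count rests on genes kept through 1 library. Lmx1b, which specifies the dorsal limb, was lowest with 15 counts in Trp53-/- and 155 in Zfp871-/- cells, beside 38 in the double null and 156 in WT, a log2 ratio of -3.59 (-4.46 to -2.82). Tbx4, the hindlimb regulator, had 8 and 40 counts, beside 5 and 193, and Tbx5, the forelimb regulator, 131 and 140, beside 115 and 344. The Hox genes, which mark position along the body, had a median of 0.32, with 5 of 31 kept genes at least 2-fold higher and 4 lower. The lower ones included the distal genes Hoxd10, Hoxd11 and Hoxd13, of which Hoxd13 had 14 and 142 counts, beside 14 and 1904, a log2 ratio of -3.56 (-4.47 to -2.77). Hoxc11 was highest at 1.58 (0.82 to 2.40) with 66 and 19 counts, beside 101 and 4. Of the 25 Hox genes with at least 1 CPM in both libraries, 2 were at least 2-fold higher and 1 was lower, so most of these calls rest on genes kept through 1 library.

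Of 11 kept neural and glial markers 8 were lower by 2-fold or more in Trp53-/- than in Zfp871-/- cells, with a median of -2.11. Of these 11, 6 passed the filter through 1 library alone, and the 5 with at least 1 CPM in both had a median of -1.04, with 3 lower by 2-fold. Sox10, the regulator of neural crest glia, had 7 counts in Trp53-/- and 55 in Zfp871-/- cells, beside 6 in the double null and 35 in WT, a log2 ratio of -3.19 (-4.57 to -2.05). Foxd3, another neural crest factor, had 1 and 22 counts, beside 0 and 15, a log2 ratio of -4.68 with an interval of -10.05 to -2.05. The counts of these genes were small in every library, and the list as a whole, led by the broadly expressed Nes and Tubb3, summed to 157 normalized CPM in Trp53-/- and 221 in Zfp871-/- cells, beside 186 and 138.

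Metabolic genes were closer to even. All 23 cholesterol synthesis genes had a positive ratio, with a median log2 ratio of 0.28 and none at 2-fold under TMM scaling. Fdps, farnesyl diphosphate synthase, was highest at 0.99 (0.61 to 1.38) with 194 counts in Trp53-/- and 84 in Zfp871-/- cells, beside 148 in the double null and 55 in WT. Genes of glycolysis lay the other way, with 18 of 21 negative (16 under total-count scaling) and a median of -0.34. Slc16a3, the lactate exporter, was lowest at -0.78 (-0.92 to -0.64), with 721 and 1062 counts, beside 1084 and 399. The ratio of the double null to WT had the opposite sign for glycolysis, with a median of 0.24.

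Fatty acid genes held 2 at least 2-fold higher and 2 lower of 25, a share close to the 13.9% over all kept genes. Cd36, a fatty acid and scavenger receptor that macrophages also make, was highest with 934 counts in Trp53-/- and 70 in Zfp871-/- cells, beside 1065 in the double null and 47 in WT, a log2 ratio of 3.52 (3.17 to 3.89). Fasn, fatty acid synthase, had 10515 and 8517 counts and a log2 ratio of 0.08 (0.04 to 0.13). In the antioxidant list 3 of 16 genes were at least 2-fold lower and none higher (18.75%, against 13.9% over all kept genes). Nqo1, the quinone reductase regulated by NRF2, had 563 and 3144 counts, beside 796 and 4064, a log2 ratio of -2.70 (-2.83 to -2.57). Gsta4, which detoxifies lipid aldehydes, had 144 and 807 counts, beside 254 and 624, while Hmox1, heme oxygenase, was at -0.29 (-0.38 to -0.20). Nfe2l2, which encodes NRF2 itself, had 1565 and 1764 counts, a log2 ratio of -0.39 (-0.49 to -0.29).

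Near the targeted genes, the share of genes at least 2-fold apart was compared with the 13.9% of all kept genes. Within 5 Mb of Trp53 it was 24 of 112 (21.4%), 16 higher and 8 lower, and within 0.5 Mb it was 5 of 39 (12.8%). Within 5 Mb of Zfp871 it was 39 of 184 (21.2%), 21 higher and 18 lower, and within 0.5 Mb it was 2 of 17 (11.8%). The wider windows hold members of the lists above, such as Xaf1, Cd68 and Aurkb on chromosome 11 and Cdkn1a, Aif1 and MHC genes on chromosome 17. The zinc finger genes next to Zfp871 were nearer to even. Zfp811, the next gene along the chromosome in the annotation among those kept, had 25 counts in Trp53-/- and 31 in Zfp871-/- cells, beside 17 in the double null and 22 in WT, with an interval that included equal levels (-1.35 to 0.28). Zfp799, beyond it, had 138 and 178 counts, beside 125 and 247, a log2 ratio of -0.59 (-0.92 to -0.26). Wrap53, which starts next to the start of Trp53 and runs away from it on the other strand, had 274 and 246 counts, beside 328 and 219, a log2 ratio of -0.06 (-0.32 to 0.19). Zfp811, Zfp799 and Wrap53 were chosen after their values were seen.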

How the data were processed

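RNA was measured in 4 libraries, 1 per genotype. The submitters' processing notes name fastp, STAR and featureCounts and the build mm10; no source used here gives versions, annotation release or strand setting. The table deposited for the series holds whole-number counts per gene, and the files deposited per sample hold length-normalized values read here as FPKM: their headers name no unit, and within each library they follow the counts by 1 constant per gene, shared by all 4 libraries, and 1 factor per library. FPKM served only to compare genes within a library. Gene names and positions come from the GENCODE M21 annotation.

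Counts were scaled by TMM in edgeR 4.0.16 (R 4.3.3) over all 4 libraries, and log2 ratios were taken with no prior count in Python 3.11.15 (numpy 2.4.6, pandas 2.3.3), a count of 0 being set to 3. A fold bounded in this way leaves out the counting error of the other library. Exact Clopper-Pearson 95% intervals (scipy 1.17.1) cover counting error only, and PCR copies among the reads were not told apart from separate molecules. DESeq2 1.42.0 size factors served as an alternative. The method was tested on simulated data. With 1 library per genotype no p-value was computed.

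The genes named by rule were the 12 highest and 12 lowest by the interval limit nearest to 0, both targeted genes, the first 3 members and the highest and lowest member of each of 48 lists, the 2 highest and 2 lowest within 5 Mb of each targeted gene, and the 10 most abundant genes at least 2-fold apart. Other named genes were chosen after their values were seen. Members and lists were chosen with earlier results of these data known. The table held 0 columns of other series. Some genes that the rule names are not reported here.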

Additional observations from a re-analysis of the deposited data

How the results depend on the processing

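Other scalings kept the counts of genes at least 2-fold apart within 1.5 times: DESeq2 size factors gave 911 higher and 977 lower in Trp53-/- than in Zfp871-/- cells, and total counts gave 1127 and 828. Total counts raised the median ratio of all genes by 0.15 on the log2 scale, and 24 of 48 list medians moved by more than their limit. Without the filter on low values 2090 genes were higher and 2452 lower, with 49 near Trp53 and 75 near Zfp871. With at least 1 CPM in both libraries 469 were higher and 562 lower, with 14 near Trp53 and 22 near Zfp871. Under each of these filters the germline list had a median of 0.34, against -1.05 as reported, because other members were kept. Of the p53 targets with at least 1 CPM in both libraries, 6 of 12 of growth arrest and 8 of 12 of cell death were lower by 2-fold, with medians of -1.11 and -1.23. With the whole interval beyond 2-fold 521 were higher and 548 lower, and at 4-fold 400 and 342. No paired analysis was possible because each genotype had 1 library and the labels give no replicate numbers. For the same reason no library could be left out. Depth limits genes with few counts, whose intervals span several-fold.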

Other observations

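Transcripts annotated as ribosomal RNA or other noncoding RNA were among the abundant genes lower in Trp53-/- than in Zfp871-/- cells. CT010467.1, annotated as rRNA, had 39613 counts in Trp53-/- and 120124 in Zfp871-/- cells, beside 65515 in the double null and 79707 in WT, a log2 ratio of -1.82. Gm23935, annotated as a miRNA gene, had 24179 and 93723 counts, beside 39943 and 56807, a log2 ratio of -2.17. The nuclear gene Lars2, which encodes a mitochondrial leucyl-tRNA synthetase, had 12887 and 45932 counts, beside 21696 and 28997, a log2 ratio of -2.05. Its counts ranked the libraries in the same order as those of CT010467.1 and Gm23935. Whether its reads came from Lars2 mRNA was not tested. The mitochondrial rRNA mt-Rnr1 had 1549 and 4531 counts, beside 2279 and 3530, a log2 ratio of -1.77. In each of these 4 genes the Zfp871-/- library was highest and the Trp53-/- library lowest.

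The mitochondrially encoded genes had a median log2 ratio of -0.05 under TMM scaling and 0.10 under total counts. mt-Nd3, a subunit of respiratory complex I, was the 1 member of 12 kept that reached 2-fold, with 309 counts in Trp53-/- and 38 in Zfp871-/- cells, beside 359 in the double null and 34 in WT, a log2 ratio of 2.80 (2.31 to 3.33).

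Prostaglandin genes held 2 at least 2-fold higher and 2 lower of 9 (44.4%, against 13.9% over all kept genes). Of the 7 with at least 1 CPM in both libraries none was higher by 2-fold and 2 were lower. Ptgs2, the inducible cyclooxygenase, had 1154 counts in Trp53-/- and 4324 in Zfp871-/- cells, beside 2197 in the double null and 3654 in WT, a log2 ratio of -2.13. Hpgd, which inactivates prostaglandins, had 45 and 12 counts, beside 51 and 323, a log2 ratio of 1.69. Slc7a8, a transporter of neutral amino acids, had 550 and 45 counts, beside 532 and 43, a log2 ratio of 3.39. Xist, transcribed from the inactive X chromosome, had 12564 and 9152 counts, beside 14475 and 12139.

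Smooth muscle markers had 2 of 14 at least 2-fold lower (14.3%) and none higher, close to the 13.9% over all kept genes. Acta2, smooth muscle actin, had 55518 counts in Trp53-/- and 55752 in Zfp871-/- cells, beside 67697 in the double null and 44026 in WT, a log2 ratio of -0.23. Des, the intermediate filament desmin, had 21 and 157 counts, beside 46 and 63, a log2 ratio of -3.12. Of 9 kept mesothelial and simple epithelial markers 1 was at least 2-fold higher and 1 lower (22.2%, against 13.9% over all kept genes). Msln, a mesothelial surface protein and the lower one, had 45 and 192 counts, beside 37 and 79, a log2 ratio of -2.31. Gpm6a, the higher one and kept through Trp53-/- alone, had 31 and 12 counts, beside 3 and 8, a log2 ratio of 1.15. Of 6 kept endothelial markers 1 was at least 2-fold higher and 2 were lower. The lowest was Erg, kept through Zfp871-/- alone, with 0 and 31 counts, beside 4 and 406. Of the 4 with at least 1 CPM in both libraries 1 was higher by 2-fold and none was lower.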
